A study of Homo sapiens with 12 samples.

Results

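The knockout of ASAP2 was compared between a pair of human pancreatic ductal adenocarcinoma lines, by asking for each gene whether its change in Panc1 differed from its change in MiaPaCa2. Bulk RNA-seq was available for 12 libraries, all of which were used: 3 of wild-type Panc1, 3 of ASAP2 knockout Panc1, 3 of wild-type MiaPaCa2 and 3 of ASAP2 knockout MiaPaCa2. Panc1 and MiaPaCa2 are established lines of pancreatic carcinoma, and no treatment or time point is named for any group. The sources used here do not say how the knockout was made, how many clones a knockout group stands for, or whether separate cultures gave the libraries of a group. The p-values therefore measure only the spread between these libraries, and an effect of the knockout cannot be told apart from that of a clone. Of 22650 genes listed in any library, 11163 had a mean of at least 1 FPKM (fragments counted per transcript length and sequencing depth) over the 6 libraries of Panc1 and also over the 6 of MiaPaCa2, and these were tested.

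ASAP2 is a GTPase-activating protein for Arf, a family of small GTPases that control vesicle budding and the actin-rich cell edge, and it is found at focal adhesions. Interferon-stimulated genes are switched on by STAT and IRF factors and restrain viruses. The ATF4 programme raises amino acid synthesis, transport and tRNA charging when cells are short of amino acids or under stress of the endoplasmic reticulum. In bulk samples, fewer cells of a kind and less RNA per cell cannot be told apart.

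Both lines held the markers of the labelled cell type in part. KRT8, KRT18, KRT19 and SOX9 were expressed in all groups, whereas EPCAM was listed at 0 in the MiaPaCa2 libraries. CDH1 was low in both lines, with means of 0.328 and 0.372 FPKM in Panc1 and 0.01 FPKM in both MiaPaCa2 groups. KRT7 had means of 2.48 and 2.76 FPKM in Panc1 and 0.0303 and 0.0577 FPKM in MiaPaCa2. Of the markers of other cells, PTPRC, PECAM1, VWF, CDH5 and LUM were at or near 0, with group means of at most 0.0253 FPKM. Expressed exceptions were CD68 in both lines, COL1A1 in Panc1 (group means of 89.3 FPKM without and 314 FPKM with the knockout), and COL1A2 (114 and 150 FPKM) and LYZ (28.7 and 122 FPKM) in MiaPaCa2. LAPTM5, a lysosomal protein known from leukocytes, had group means of 0.582 and 3.42 FPKM in Panc1 and 2.03 and 16.9 FPKM in MiaPaCa2, and PDGFRB of 0.421 and 0.646 FPKM in Panc1. Their part in the results was not tested. FPKM summed to between 360765 and 392610 per library, and 11842 to 12500 genes per library reached 1 FPKM.

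The knockout libraries of the 2 lines differed from their wild-type libraries in largely separate ways. Each change is a difference of log2(FPKM + 1) values, a scale that shrinks the changes of weakly expressed genes, and the difference between the lines is the Panc1 change minus the MiaPaCa2 change. Calls needed an adjusted p under 0.05 in limma's moderated test. The difference was called for 6519 of 11163 genes (58.4%). It was higher in Panc1 for 2176 genes (19.5%) and lower in Panc1 for 4343 genes (38.9%). At least a 2-fold difference was reached by 156 of the former and 181 of the latter. Across genes the change in Panc1 and the change in MiaPaCa2 had a Pearson r of 0.07 and a Spearman rho of 0.05, a description over 11163 genes, which are not independent and share the libraries of each line.

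Most called differences came from genes that were called in a single line. Of the 6519 genes, 3596 were called in Panc1 alone and 933 in MiaPaCa2 alone, 1274 were called with opposite signs (11.4% of the genes tested), 496 with the same sign and unequal size, and 220 in neither line. Of the 1274, 513 rose in Panc1 and fell in MiaPaCa2, and 761 did the reverse. By at least 0.5 in both lines, 52 genes went opposite ways, 29 of them up in Panc1. In Panc1, 21.3% of genes were called up and 44.4% down, while in MiaPaCa2 18.3% were called up and 18.1% down. The same sign was called in both lines for 1417 genes, of which 921 had no called difference in size.

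The excess of lower calls changed with the processing of the libraries, and its cause was not tested. The median difference over all genes was -0.14, from a median change of -0.12 in Panc1 and 0.01 in MiaPaCa2, and the quartiles of the difference were -0.40 and 0.15. Lower calls made up 66.6% of the called genes on the deposited scale and 48.8% after each library was rescaled by its median ratio, with 3118 higher and 2977 lower. Once each library was corrected for GC content and length they made up 53.8%, with quantile normalization 51.9%, and on the TPM scale 74.1%. List medians below are therefore given relative to the median of all genes. Of the genes tested, 345 had a group mean under 1 FPKM, and 221 of these were called.

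**Figure D1:**
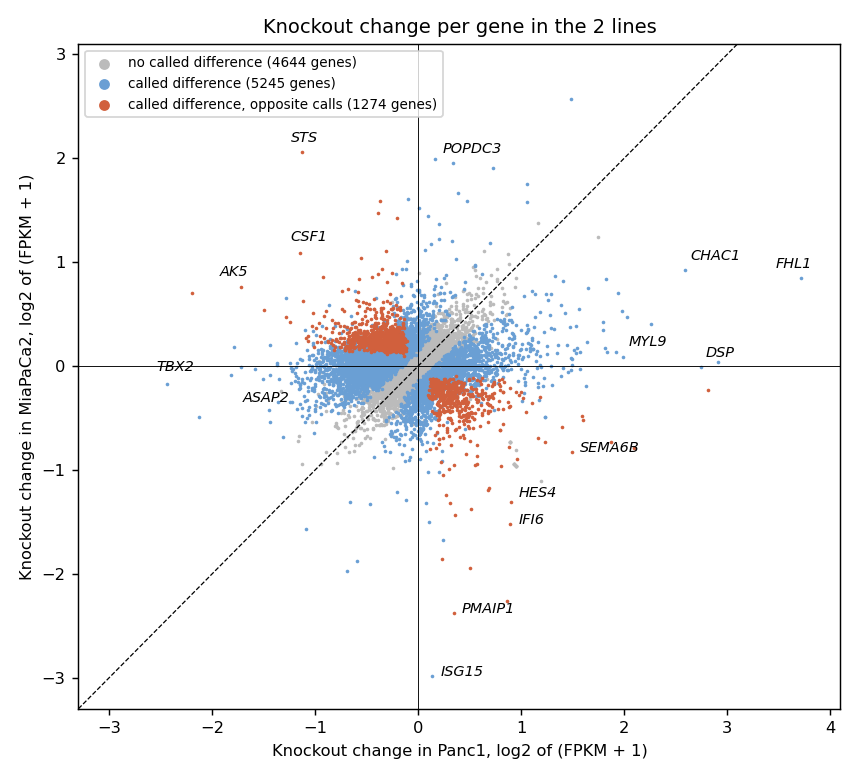
Knockout change of each of 11163 genes in Panc1 (horizontal axis) and in MiaPaCa2 (vertical axis), both as log2 of (FPKM + 1), with 1 point per gene coloured by its call and a dashed line where both changes are equal. The 1274 genes with opposite calls lie in the upper left and lower right, and the 2 changes have a Pearson r of 0.07 over genes.

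The targeted gene itself separated the lines. ASAP2 (chromosome 2, 9346894 to 9545812 in GRCh37, forward strand) read 38.6, 37.5 and 34.6 FPKM in the wild-type and 14.2, 14.5 and 12.7 FPKM in the knockout libraries of Panc1. In MiaPaCa2 it read 13.2, 13.6 and 13.8 FPKM in the wild-type and 12, 13.8 and 11.3 FPKM in the knockout libraries. Wild-type Panc1 stood well above every other library, and the other 9 libraries lay between 11.3 and 14.5 FPKM. The changes of -1.36 in Panc1 and -0.13 in MiaPaCa2 gave a difference of -1.23 (SE 0.10, adjusted p = 1.0e-06), and the MiaPaCa2 change was not called (adjusted p = 0.183). An edit of the gene need not lower its mRNA, so the label of the MiaPaCa2 knockout libraries is not checked by this transcript. Of 32 tested Arf GAPs and Arf regulators, 3 had a higher and 14 a lower change in Panc1, against 19.5% higher and 38.9% lower of all genes. Their median was 0.03 relative to all genes, and its range over the alternatives ran from -0.09 to 0.05, so the list did not stand apart. After ASAP2, the largest called difference was that of PSD3, an exchange factor for ARF6, which fell in Panc1 and rose in MiaPaCa2 (-0.61 in Panc1 and 0.29 in MiaPaCa2, difference of -0.90 (SE 0.13, adjusted p = 8.3e-05)).

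Among the genes that rose in Panc1 and fell in MiaPaCa2, and whose higher group averaged 5 FPKM or more in both lines, HES4, a repressor of the Hairy family, had the largest change in the line where it changed less. In Panc1 HES4 (chromosome 1, 934342 to 935552 in GRCh37) read 26.8, 23.4 and 26.2 FPKM in the wild-type and 49.6, 49.8 and 45.5 FPKM in the knockout libraries. The MiaPaCa2 values were 16.8, 19.1 and 17.4 FPKM in the wild-type and 5.99, 6.96 and 6.71 FPKM in the knockout libraries. Wild-type and knockout libraries did not overlap in either line, and the difference of 2.21 (SE 0.10, adjusted p = 8.2e-09) came from changes of 0.90 in Panc1 and -1.31 in MiaPaCa2. Close to HES4 lie ISG15 (from 936518) and AGRN (from 955500), which fell in MiaPaCa2 too (-2.98 and -0.62) and were not called in Panc1. These genes may therefore not be independent, and a shared local change was not tested. SEMA6B, a transmembrane semaphorin, followed the same pattern from a low level in Panc1, with 4.5, 4.57 and 4.77 FPKM in the wild-type and 14, 15.6 and 14.9 FPKM in the knockout libraries. In MiaPaCa2 it was far more abundant at 63.8, 53.5 and 51.8 FPKM in the wild-type and 31, 33.5 and 29.3 FPKM in the knockout libraries. Its groups were apart in both lines, with a difference of 2.32 (SE 0.10, adjusted p = 1.1e-08). CITED4, a coregulator that binds CBP and p300, had changes of 0.88 in Panc1 and -0.78 in MiaPaCa2 and a difference of 1.66 (SE 0.11, adjusted p = 2.6e-07). LOC100507412, which has no position in the annotation used, had changes of 0.86 in Panc1 and -2.26 in MiaPaCa2. Its difference was 3.12 (SE 0.21, adjusted p = 2.9e-07). In MiaPaCa2 it read 4.43, 8.67 and 7.44 FPKM in the wild-type and 0.628, 0.53 and 0.607 FPKM in the knockout libraries. It passed the filter in MiaPaCa2 only through the wild-type group.

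The reverse pattern, down in Panc1 and up in MiaPaCa2, was led by CSF1, the growth factor of macrophages, among genes whose higher group averaged 5 FPKM or more in both lines. CSF1 (chromosome 1, 110452864 to 110473614 in GRCh37) read 40.4, 39.1 and 38.1 FPKM in the wild-type and 17.4, 17.2 and 17 FPKM in the knockout libraries of Panc1. The MiaPaCa2 libraries held 17.5, 12.2 and 12.1 FPKM in the wild-type and 27.2, 35.7 and 28.5 FPKM in the knockout libraries. Replicate 1 of the MiaPaCa2 wild-type stood above the other two wild-type libraries and below all knockout libraries, and without it the difference was -2.39, against -2.23 with all libraries (SE 0.17, adjusted p = 5.8e-07). AK5, an adenylate kinase, was tight in every group. Its values were 6.72, 6.55 and 6.06 FPKM in the wild-type and 1.26, 1.24 and 1.25 FPKM in the knockout libraries of Panc1. They were 3.39, 3.45 and 3.39 FPKM in the wild-type and 6.7, 6.26 and 6.5 FPKM in the knockout libraries of MiaPaCa2. No library of 1 genotype reached those of the other in either line, and the difference of -2.48 (SE 0.08, adjusted p = 6.5e-10) had the smallest adjusted p of these 5 genes. PON2, a paraoxonase that limits oxidative damage, had changes of -0.68 in Panc1 and 0.74 in MiaPaCa2 (difference of -1.43 (SE 0.08, adjusted p = 7.5e-08)). ARRB1, which encodes beta-arrestin 1, had changes of -0.60 in Panc1 and 0.64 in MiaPaCa2 (difference of -1.24 (SE 0.09, adjusted p = 5.7e-07)). KCNK6, a potassium leak channel, had changes of -0.59 in Panc1 and 0.63 in MiaPaCa2 (difference of -1.21 (SE 0.19, adjusted p = 1.6e-04)), with replicate 2 of the MiaPaCa2 knockout at 7.65 FPKM against 4.93 and 4.54 FPKM in the other two.

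**Figure D2:**
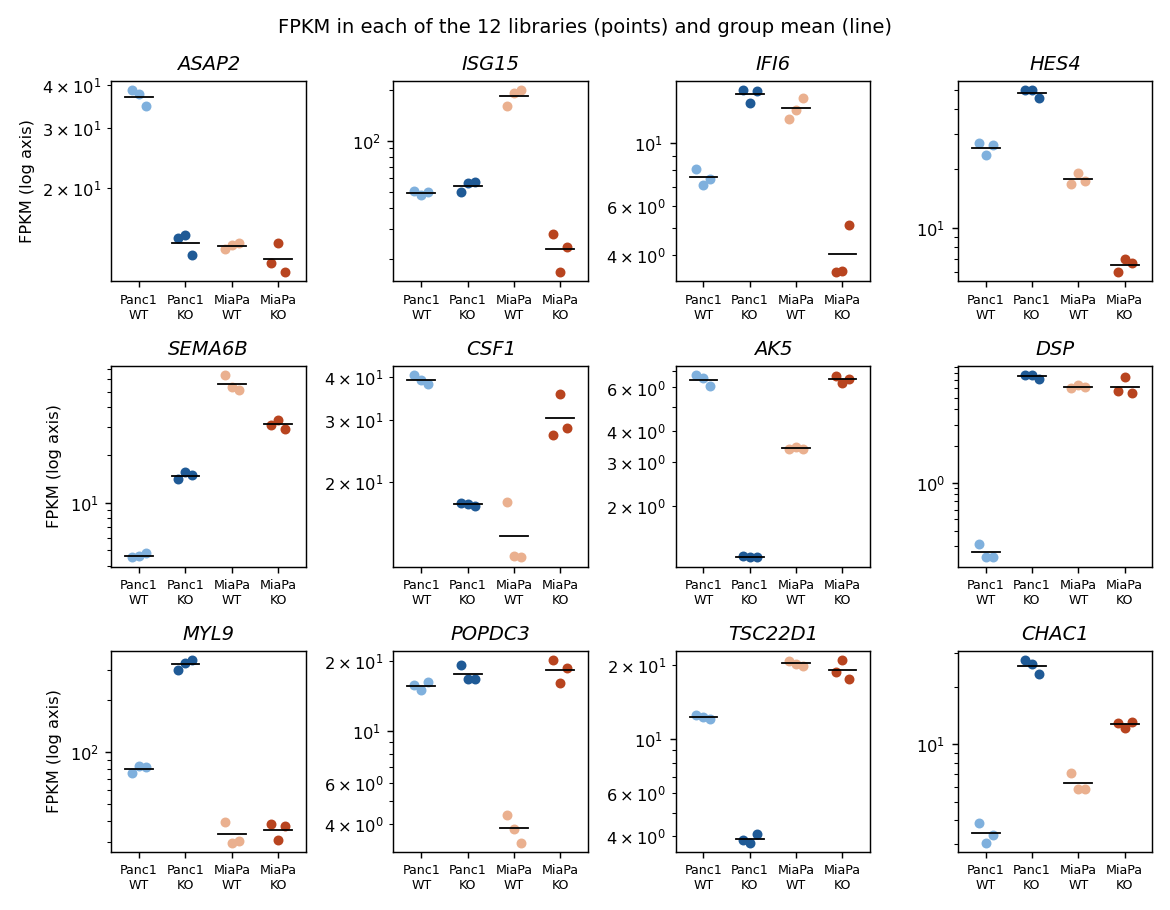
FPKM of 12 genes in each of the 12 libraries, on log axes that differ between panels, with points for libraries (3 per group) and a line for the group mean. HES4, IFI6 and SEMA6B go up in Panc1 and down in MiaPaCa2, CSF1 and AK5 go the other way, and DSP, MYL9 and TSC22D1 are called in Panc1 alone.

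Interferon-induced antiviral genes were the list with the highest median difference among those with at least 5 tested members. Of 39 genes on it, 19 passed the filter of 1 FPKM in both lines, and 14 of these had a higher and 3 a lower change in Panc1. Over all genes tested, 19.5% were higher and 38.9% lower. In Panc1 10 members rose and 6 fell, against 21.3% and 44.4% of all genes. In MiaPaCa2 0 rose and 12 fell by limma, against 18.3% and 18.1% of all genes, with 1 rise at an unadjusted p under 0.05. The median change was 0.24 in Panc1 and -0.60 in MiaPaCa2, and the median difference was 0.92 relative to all genes, between 0.79 and 1.13 over the alternatives. After correction for GC content and length 15 members were higher and 0 lower by limma, with 0 lower at an unadjusted p under 0.05 as well.

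ISG15, a ubiquitin-like modifier, held the largest difference of the list. It (chromosome 1, 936518 to 949920 in GRCh37) read 50.1, 47.6 and 49.9 FPKM in the wild-type and 49.8, 56 and 57 FPKM in the knockout libraries of Panc1. MiaPaCa2 had 160.9, 192.0 and 198.4 FPKM in the wild-type and 28.2, 16.7 and 23.5 FPKM in the knockout libraries. The Panc1 groups overlapped and the MiaPaCa2 groups lay far apart, so that the difference of 3.12 (SE 0.19, adjusted p = 1.5e-07) rested on the fall in MiaPaCa2 (changes of 0.14 in Panc1 and -2.98 in MiaPaCa2). IFI6, an interferon-induced antiviral protein, changed in both lines instead, with 8.12, 7.09 and 7.47 FPKM in the wild-type and 15.4, 13.9 and 15.3 FPKM in the knockout libraries of Panc1. The MiaPaCa2 libraries read 12.2, 13.1 and 14.5 FPKM in the wild-type and 3.48, 3.51 and 5.12 FPKM in the knockout libraries. No groups overlapped, and changes of 0.89 in Panc1 and -1.52 in MiaPaCa2 gave a difference of 2.41 (SE 0.15, adjusted p = 1.5e-07).

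Other antiviral members shared the rise in Panc1 and fall in MiaPaCa2. IFITM3, which blocks virus entry at endosomes, changed by 0.51 and -1.38 (difference 1.88, adjusted p = 2.1e-09). LGALS3BP, a secreted glycoprotein, changed by 0.69 and -1.18 (difference 1.87). IFITM1 changed by 0.31 and -1.32, ISG20, an exonuclease, by 0.27 and -1.24, and USP18, which removes ISG15 from proteins, by 0.53 and -0.60. OAS3, a sensor that activates RNase L, and IFITM2 fell in both lines, more in MiaPaCa2. IFITM1, IFITM2 and IFITM3 are related genes that may share reads, so their separate values are uncertain. UBE2L6, the conjugating enzyme for ISG15, is outside the list and was chosen after its values were seen, with changes of 1.87 in Panc1 and -0.73 in MiaPaCa2 and a difference of 2.60 (SE 0.17, adjusted p = 2.2e-07). Members with a lower change in Panc1 were IFIT5 (-0.33), PARP9 (-0.32) and PLSCR1 (-0.52), none of which was called after the GC and length correction.

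The sensing arm gave a mixed picture. Of 24 tested genes of double-stranded RNA sensing and interferon signalling, 7 were higher and 5 lower, with a relative median of 0.11, and its range over the alternatives ran from -0.01 to 0.16. DDX58, the RNA sensor RIG-I, had changes of 0.23 in Panc1 and -1.86 in MiaPaCa2 and a difference of 2.09 (SE 0.13, adjusted p = 1.5e-07). Its MiaPaCa2 values were 9.95, 10.4 and 11.9 FPKM in the wild-type and 2.63, 2.05 and 2.06 FPKM in the knockout libraries. The groups were apart in MiaPaCa2 and overlapped in Panc1. DHX58, the related protein LGP2, had a difference of 1.29 (SE 0.10, adjusted p = 7.0e-07).

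The promoters of interferon-list members are shown because 12 of the 19 fell in MiaPaCa2 and because the element searched for is the known binding site of its activators. RefSeq promoter windows (GRCh38.p14, 250 bases before to 50 after the start, a different build from the gene positions above) were matched for 16 of the 19 members. The interferon-stimulated response element was searched on both strands by its consensus and was found in 12 of the 16 windows (75%), against 2.49% of 8752 windows of tested genes and 3.65% of all 27305 windows. The element and the list were chosen after the list medians had been seen, and a match is a description, not a shown binding site. The list was made of interferon-induced genes, so its share of matches describes the list and says nothing about the knockout. Capitals mark the matches in ISG15 (chr1:1013247-1013546, + strand), in IFI6 (chr1:27672143-27672442, - strand) and, as a member with a match and a lower change in Panc1, in PLSCR1 (chr3:146544558-146544857, - strand).
ISG15: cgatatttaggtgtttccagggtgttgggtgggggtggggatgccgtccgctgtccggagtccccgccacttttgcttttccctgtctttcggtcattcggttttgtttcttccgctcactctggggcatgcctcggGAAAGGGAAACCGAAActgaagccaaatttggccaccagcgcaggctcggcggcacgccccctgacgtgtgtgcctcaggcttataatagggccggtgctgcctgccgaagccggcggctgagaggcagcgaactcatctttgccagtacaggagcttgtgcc
IFI6: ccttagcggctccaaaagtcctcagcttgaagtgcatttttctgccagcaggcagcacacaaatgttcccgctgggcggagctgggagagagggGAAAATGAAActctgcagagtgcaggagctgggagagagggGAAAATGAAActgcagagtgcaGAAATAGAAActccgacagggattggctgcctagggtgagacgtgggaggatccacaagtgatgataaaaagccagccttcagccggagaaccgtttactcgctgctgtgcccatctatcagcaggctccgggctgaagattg
PLSCR1: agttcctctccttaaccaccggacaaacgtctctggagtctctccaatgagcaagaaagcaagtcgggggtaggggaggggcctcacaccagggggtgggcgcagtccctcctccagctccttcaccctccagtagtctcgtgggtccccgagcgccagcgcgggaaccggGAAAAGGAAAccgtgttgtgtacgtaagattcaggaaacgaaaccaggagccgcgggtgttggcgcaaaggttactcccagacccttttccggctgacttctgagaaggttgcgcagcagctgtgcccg

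ISG15 has 2 overlapping matches from -113 and -107 relative to the start and IFI6 has 3, at -156, -115 and -93, while PLSCR1 has 1 at -79. IFIT5, with 3 matches, and PLSCR1 had lower changes in Panc1 than in MiaPaCa2.

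Most targets of ATF4 rose in Panc1, and fewer of them rose in MiaPaCa2. Of 41 tested members 37 rose in Panc1 and 1 fell, against 21.3% and 44.4% of all genes. In MiaPaCa2 21 members rose and 2 fell, against 18.3% and 18.1% of all genes. The difference was higher in Panc1 for 30 and lower for 1, ATF5, against 19.5% and 38.9% of all genes. The median change was 0.89 in Panc1 and 0.17 in MiaPaCa2, and the median difference relative to all genes was 0.80, between 0.57 and 0.85 over the alternatives.

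CHAC1, an enzyme that degrades glutathione, had the largest change of the list in Panc1. CHAC1 (chromosome 15, 41245160 to 41248710 in GRCh37) read 3.86, 3.06 and 3.36 FPKM in the wild-type and 27.4, 26.3 and 23.3 FPKM in the knockout libraries of Panc1. In MiaPaCa2 it read 7.06, 5.86 and 5.85 FPKM in the wild-type and 12.9, 12.2 and 13.1 FPKM in the knockout libraries. Both lines rose without overlap of the groups, and the difference of 1.67 (SE 0.12, adjusted p = 3.6e-07) reflects unequal size. PCK2, mitochondrial phosphoenolpyruvate carboxykinase, changed in Panc1 alone, with 7.12, 6.74 and 7.18 FPKM in the wild-type and 32.2, 31.7 and 24.8 FPKM in the knockout libraries. Its MiaPaCa2 groups overlapped at 42.3, 34.5 and 35 FPKM in the wild-type and 40.6, 44 and 38.3 FPKM in the knockout libraries. The difference of 1.79 (SE 0.14, adjusted p = 6.6e-07) was the largest of the list.

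The members fall into arms. In serine and one-carbon synthesis, PHGDH changed by 1.44 in Panc1 and 0.20 in MiaPaCa2, PSAT1 by 1.07 and 0.35, and MTHFD2 by 1.11 and -0.36, the last with opposite calls. ASNS, asparagine synthetase, changed by 1.53 and 0.38. Among amino acid carriers SLC7A5 changed by 1.57 and -0.03, and SLC7A1 by 0.82 and -0.04, neither called in MiaPaCa2. Of the tRNA synthetases, YARS changed by 0.89 and 0.06, AARS by 1.05 and 0.17, and WARS by 0.57 and -0.94, with opposite calls. WARS is also known as an interferon-induced gene. Among the regulators, ATF4 itself changed by 1.13 and 0.47 and TRIB3 by 1.83 and 0.84, and both differences were called. DDIT3 (0.76 and 0.82), DDIT4 (1.75 and 1.25) and NUPR1 (0.95 and 0.85) rose in both lines with no called difference. SESN2, a stress-induced regulator of mTORC1, had changes of 1.94 in Panc1 and 0.70 in MiaPaCa2 and a difference of 1.24 (SE 0.19, adjusted p = 1.5e-04), and replicate 3 of the Panc1 knockout held 18.9 FPKM against 29 and 27.9 FPKM.

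The CEBP-ATF response element, TGATGNAA on either strand, was found in 11 of 34 matched windows of ATF4 list members (32.4%), against 1.39% of windows of tested genes and 3.67% of all windows. The list was made of genes of the ATF4 programme, so this share describes the list and says nothing about the knockout. A match is not a shown binding site. CHAC1 (chr15:40953221-40953520, + strand, match at -209) and ASNS (chr7:97872359-97872658, - strand, match at -68) are shown with the match in capitals, on the reverse strand in CHAC1, as members with the strongest response in Panc1 among those with a match. PCK2, PHGDH, TRIB3 and SESN2 had none in this window.
CHAC1: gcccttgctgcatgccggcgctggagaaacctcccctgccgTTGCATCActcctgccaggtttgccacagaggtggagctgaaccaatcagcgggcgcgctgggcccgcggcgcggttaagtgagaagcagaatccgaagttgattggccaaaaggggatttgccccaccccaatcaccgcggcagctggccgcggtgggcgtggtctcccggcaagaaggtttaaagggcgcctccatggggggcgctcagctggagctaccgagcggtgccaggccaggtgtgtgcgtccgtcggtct
ASNS: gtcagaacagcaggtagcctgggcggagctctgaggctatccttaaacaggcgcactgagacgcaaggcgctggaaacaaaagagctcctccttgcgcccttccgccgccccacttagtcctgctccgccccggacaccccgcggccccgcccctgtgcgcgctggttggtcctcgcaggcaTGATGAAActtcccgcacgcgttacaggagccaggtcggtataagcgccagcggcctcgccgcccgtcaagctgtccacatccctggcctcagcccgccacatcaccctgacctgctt

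**Figure D3:**
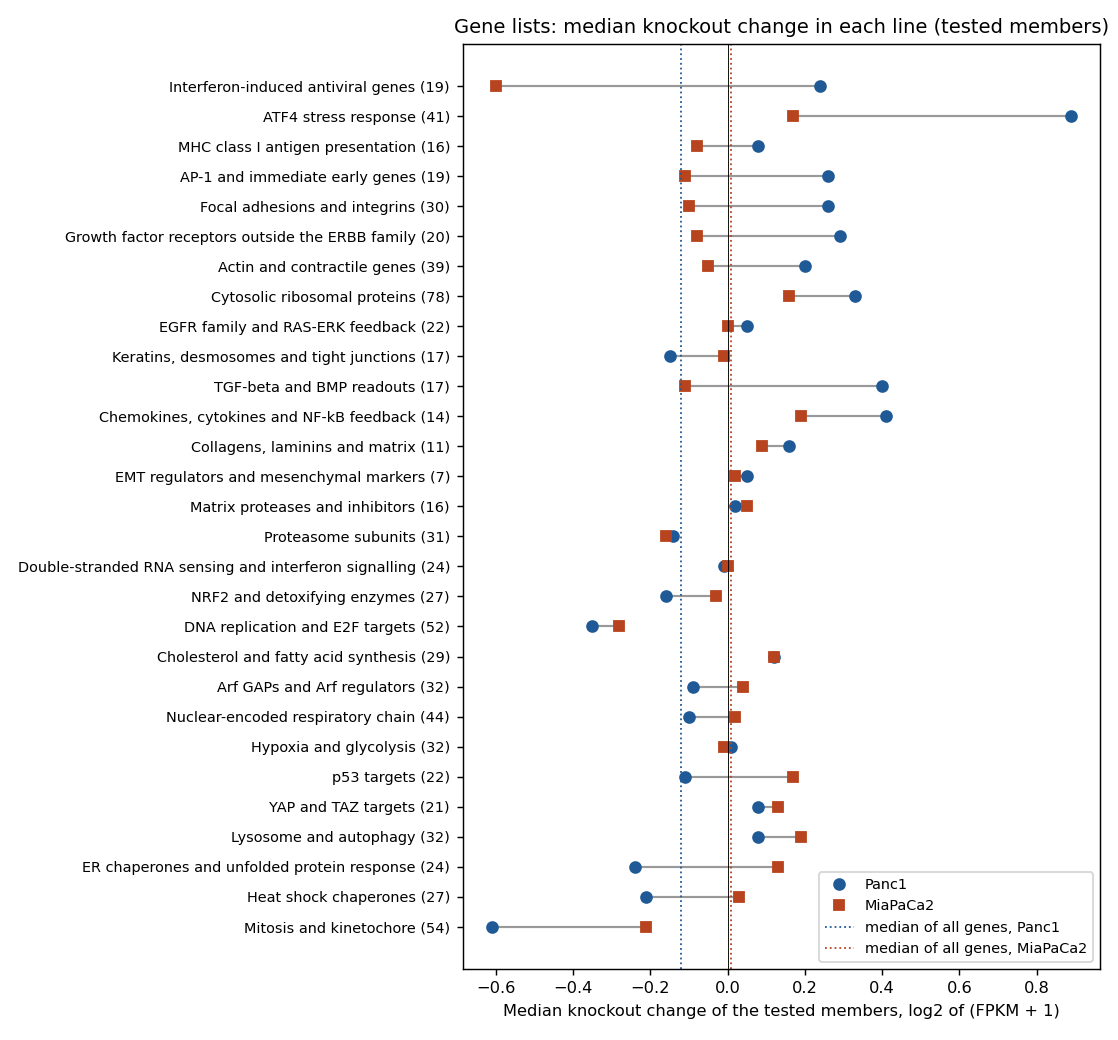
Median knockout change of the tested members of each gene list in Panc1 (circles) and MiaPaCa2 (squares), as log2 of (FPKM + 1), ordered by the median difference, with dotted lines at the medians of all genes and the number of tested members in brackets. The interferon list spans -0.60 to 0.24 and the ATF4 list 0.17 to 0.89, and mitosis genes are lowest in Panc1 at -0.61.

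Among adhesion and contractile genes, changes that were higher in Panc1 outnumbered lower ones. Of 30 tested genes of focal adhesions and integrins, 18 had a higher and 5 a lower change in Panc1, with 10 opposite calls and a relative median of 0.46 (0.27 to 0.49 over the alternatives). Of all genes, 19.5% were higher, 38.9% lower and 11.4% called with opposite signs. ACTN1, the actin crosslinker alpha-actinin 1, read 124.5, 126.8 and 127.5 FPKM in the wild-type and 254.7, 262.8 and 265.9 FPKM in the knockout libraries of Panc1. MiaPaCa2 had 116.1, 116.5 and 111.5 FPKM in the wild-type and 84.2, 79 and 89.2 FPKM in the knockout libraries. The groups were apart in both lines, in opposite directions (difference of 1.49 (SE 0.06, adjusted p = 7.9e-09)). ITGA3, an integrin subunit for laminin, behaved alike with changes of 0.68 in Panc1 and -0.54 in MiaPaCa2 (difference of 1.22 (SE 0.07, adjusted p = 5.9e-08)). VCL (0.45 and -0.43), ZYX (0.71 and -0.27), VASP (0.31 and -0.44) and PXN (0.43 and -0.27), all parts of the adhesion plaque, also had opposite calls. ITGAV went the other way, with 0.73 in MiaPaCa2 and -0.01 in Panc1.

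Of 39 actin and contractile genes, 24 were higher and 11 lower, against 19.5% and 38.9% of all genes. The relative median was 0.36 (0.17 to 0.39 over the alternatives). FHL1, a LIM protein of muscle and stroma, changed most in Panc1, with 3.55, 2.9 and 3.88 FPKM in the wild-type and 58.4, 55.3 and 58.1 FPKM in the knockout libraries. In MiaPaCa2 the same gene read 1.49, 1.88 and 1.9 FPKM in the wild-type and 4.29, 3.32 and 4.24 FPKM in the knockout libraries. It rose in both lines and the difference of 2.88 (SE 0.14, adjusted p = 1.5e-08) lay in the size. MYL9, the regulatory light chain of non-muscle myosin, changed in Panc1 alone at 76, 83.1 and 82.2 FPKM in the wild-type and 298.3, 329.9 and 340.6 FPKM in the knockout libraries. Its MiaPaCa2 groups overlapped at 39.6, 29.9 and 30.5 FPKM in the wild-type and 38.1, 30.8 and 37.5 FPKM in the knockout libraries. The MYL9 change gave a difference of 1.90 (SE 0.14, adjusted p = 5.9e-07).

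Readouts of TGF-beta and BMP signalling included 7 higher and 0 lower of 17 tested by limma (2 lower at an unadjusted p under 0.05). Of all genes, 19.5% were higher and 38.9% lower. The relative median of the list was 0.29 (0.17 to 0.99 over the alternatives). BMP6, a secreted ligand, read 20.1, 20.6 and 21.3 FPKM in the wild-type and 33.5, 31.3 and 28.9 FPKM in the knockout libraries of Panc1. The values in MiaPaCa2 were 13.4, 16.3 and 17.2 FPKM in the wild-type and 7.85, 7.84 and 8.5 FPKM in the knockout libraries. Groups were apart both times, in opposite directions (difference of 1.44 (SE 0.11, adjusted p = 8.0e-07)), and the BMP targets ID1 (0.44 and -0.66) and ID3 (0.49 and -0.47) had opposite calls too. ID2 fell in both lines (-0.79 and -0.94). Of 19 AP-1 and immediate early genes 11 were higher and 3 lower, with a relative median of 0.50 (0.33 to 0.53). JUND had changes of 0.88 in Panc1 and -0.40 in MiaPaCa2 (difference of 1.28 (SE 0.12, adjusted p = 3.5e-06)) and KLF2 of 0.82 in Panc1 and -0.25 in MiaPaCa2 (difference of 1.07 (SE 0.12, adjusted p = 1.3e-05)), while EGR1 fell in Panc1 by 0.94 and was not called in MiaPaCa2.

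Antigen presentation by MHC class I counted 9 higher and 3 lower of 16, against 19.5% and 38.9% of all genes. The relative median was 0.50 (0.23 to 0.66). HLA-C had a difference of 1.96 (SE 0.08, adjusted p = 7.9e-09) and HLA-B a difference of 1.86 (SE 0.10, adjusted p = 4.2e-08), each up in Panc1 and down in MiaPaCa2. Both are uncertain, because near-identical copies can share their reads. TAP1 and PSME1 were called up in Panc1 alone, and B2M, the invariant light chain, was lower in Panc1 (-0.31 against -0.03), a difference that was not called after the GC and length correction.

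Keratin and junction genes counted 7 higher and 5 lower of 17, against 19.5% and 38.9% of all genes, with a relative median of 0.30 (0.10 to 0.57). Genes of the mesenchymal state counted 2 higher and 1 lower of 7. KRT8 had changes of 0.46 in Panc1 and -0.50 in MiaPaCa2 (difference of 0.97 (SE 0.05, adjusted p = 4.8e-08)), and AXL, a receptor tyrosine kinase, of 0.48 in Panc1 and -0.45 in MiaPaCa2 (difference of 0.94 (SE 0.09, adjusted p = 5.0e-06)). S100A4, a calcium-binding protein of motile cells, went the other way, with 82, 71.2 and 71 FPKM in the wild-type and 24.6, 25.1 and 27.9 FPKM in the knockout libraries of Panc1. MiaPaCa2 stood at 471.5, 379.2 and 394.9 FPKM in the wild-type and 570.2, 711.5 and 539.1 FPKM in the knockout libraries. The groups were apart in each line (difference of -2.04 (SE 0.15, adjusted p = 4.1e-07)). Of 22 tested genes of the EGFR family and RAS-ERK feedback, 9 were higher and 7 lower, against 19.5% higher and 38.9% lower of all genes. The relative median was 0.34 (0.19 to 0.41), and ERBB2 was among the higher members (0.34 in Panc1 and -0.18 in MiaPaCa2). EGFR had changes of -0.54 in Panc1 and 0.42 in MiaPaCa2 (difference of -0.96 (SE 0.08, adjusted p = 1.5e-06)). EREG, one of its ligands, fell in Panc1 from a low level with a difference of -1.22 (SE 0.11, adjusted p = 1.7e-06). EREG passed the filter in Panc1 only through the wild-type group.

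Among genes called in a single line whose higher group averaged 5 FPKM or more in both lines, and whose change in the other line was at most 0.2, the largest rises in Panc1 were those of TUBB2B, DSP and MYL9. DSP, the desmosome protein desmoplakin, read 0.314, 0.242 and 0.242 FPKM in the wild-type and 7.63, 7.61 and 7.16 FPKM in the knockout libraries of Panc1. In MiaPaCa2 it read 5.99, 6.35 and 6.13 FPKM in the wild-type and 5.7, 7.33 and 5.42 FPKM in the knockout libraries. The Panc1 knockout reached the level at which both MiaPaCa2 groups stood (difference of 2.75 (SE 0.12, adjusted p = 8.1e-09)). DSP stood under 1 FPKM in wild-type Panc1, where the log2 change is understated, and passed the filter there only through the knockout group. TUBB2B, a beta-tubulin with near-identical copies and therefore uncertain, had a difference of 2.87 (SE 0.09, adjusted p = 6.5e-10). Under the same limit, falls in Panc1 alone were led by IGFBP6, a binding protein for IGF2 (difference of -1.73 (SE 0.21, adjusted p = 2.5e-05)), SNORA9, a small nucleolar RNA whose FPKM is uncertain at its length (difference of -1.38 (SE 0.37, adjusted p = 0.00696)), and TSC22D1, a leucine zipper regulator. TSC22D1 read 12.5, 12.3 and 12 FPKM in the wild-type and 3.88, 3.77 and 4.09 FPKM in the knockout libraries of Panc1. The MiaPaCa2 groups overlapped at 20.8, 20.3 and 19.9 FPKM in the wild-type and 18.8, 20.9 and 17.6 FPKM in the knockout libraries (difference of -1.35 (SE 0.08, adjusted p = 1.2e-07)).

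By the same limits, rises in MiaPaCa2 alone were led by POPDC3, a membrane protein of the Popeye family. POPDC3 read 4.38, 3.8 and 3.33 FPKM in the wild-type and 20.1, 16.1 and 18.7 FPKM in the knockout libraries of MiaPaCa2. In Panc1 the knockout libraries lay just above the wild-type ones, at 15.7, 15 and 16.2 FPKM in the wild-type and 19.3, 16.7 and 16.8 FPKM in the knockout libraries, and the change was not called (difference of -1.84 (SE 0.13, adjusted p = 3.0e-07)). KIAA1549L had a difference of -1.52 (SE 0.08, adjusted p = 5.4e-08). TMX4, a thioredoxin-like protein of the endoplasmic reticulum, had a difference of -1.71 (SE 0.24, adjusted p = 8.0e-05), which was -1.94 without replicate 1 of the MiaPaCa2 wild-type and -1.52 without replicate 2 of the knockout. Falls in MiaPaCa2 alone, of at least 1 and within these limits, were those of ISG15 and S100A16, a calcium-binding protein (difference of 1.12 (SE 0.10, adjusted p = 2.8e-06)).

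Where both lines moved the same way, size still differed for some genes. SCD5, a stearoyl-CoA desaturase, rose by 2.26 in Panc1 and 0.41 in MiaPaCa2 (difference of 1.85 (SE 0.10, adjusted p = 4.4e-08)). PHLDA3, a p53 target that restrains AKT, rose more in MiaPaCa2 (0.39 in Panc1 and 1.66 in MiaPaCa2, difference of -1.27 (SE 0.16, adjusted p = 2.9e-05)), as did CD82, a tetraspanin (1.06 in Panc1 and 1.58 in MiaPaCa2, difference of -0.52 (SE 0.12, adjusted p = 0.00185)). TRIB2, a pseudokinase, fell more in Panc1 (-2.13 in Panc1 and -0.49 in MiaPaCa2, difference of -1.64 (SE 0.11, adjusted p = 2.3e-07)), and TM4SF18 likewise (difference of -1.02 (SE 0.09, adjusted p = 2.8e-06)). FABP5, a fatty acid carrier, fell more in MiaPaCa2 (-0.69 in Panc1 and -1.97 in MiaPaCa2, difference of 1.28 (SE 0.13, adjusted p = 6.8e-06)), and TUBB3, a neuronal beta-tubulin, also (difference of 1.01 (SE 0.10, adjusted p = 6.8e-06)). Of 17 genes with a change of at least 0.8 and the same sign in both lines, 9 had a called difference. Only 2 had a 95% interval of the difference within 0.3 of 0, both down. SAPCD2, which acts in spindle orientation, was 1 of them, with changes of -0.89 in Panc1 and -0.83 in MiaPaCa2 and a difference of -0.06 (SE 0.08, adjusted p = 0.511), interval -0.23 to 0.11. With the GC and length correction its difference was -0.21 and was called.

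Most mitosis genes fell in Panc1, and fewer of them fell in MiaPaCa2. Of 54 tested genes of mitosis and the kinetochore, 49 fell in Panc1 and 28 in MiaPaCa2, against 44.4% and 18.1% of all genes. In the difference 35 were lower and 4 higher, against 38.9% and 19.5% of all genes. The relative median was -0.31 (-0.43 to -0.21 over the alternatives). HMMR, a spindle-associated protein, read 22.6, 24.3 and 19.8 FPKM in the wild-type and 9.63, 9.21 and 7.86 FPKM in the knockout libraries of Panc1. MiaPaCa2 had 33, 30.7 and 33.7 FPKM in the wild-type and 33.7, 37.3 and 24.3 FPKM in the knockout libraries, with overlap (difference of -1.18 (SE 0.18, adjusted p = 1.3e-04)). KIF18A, a kinesin of chromosome alignment, had a difference of -0.85 (SE 0.20, adjusted p = 0.00334). Of 52 DNA replication genes 38 fell in Panc1 and 32 in MiaPaCa2 (medians of -0.35 and -0.28), and 17 were lower and 5 higher in the difference. That is 17 of 52 against the 38.9% of all genes called lower, and the relative median was 0.03 (-0.08 to 0.06). GINS4, a subunit of the replicative helicase complex, was an exception, with changes of -0.45 in Panc1 and 0.86 in MiaPaCa2 (difference of -1.30 (SE 0.09, adjusted p = 3.9e-07)), and DSCC1, a clamp loader subunit for cohesion, had a difference of -0.83 (SE 0.13, adjusted p = 1.5e-04).

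In both chaperone lists lower changes in Panc1 outnumbered higher ones. Of 24 tested ER chaperones and unfolded protein response genes 15 were lower and 3 higher, against 38.9% and 19.5% of all genes. The relative median was -0.21 (-0.33 to -0.10). After median-ratio scaling 10 were lower and 6 higher. After the GC and length correction 12 were lower and 5 higher, with a relative median of -0.14. DNAJB9 (difference of -1.05 (SE 0.13, adjusted p = 2.3e-05)) and DNAJC3 (difference of -0.72 (SE 0.11, adjusted p = 1.4e-04)), both co-chaperones of BiP, fell in Panc1 and rose in MiaPaCa2. Of 27 heat shock chaperones 15 were lower and 5 higher, with a relative median of -0.23 (-0.34 to -0.12). After the GC and length correction 14 were lower and 5 higher, with a relative median of -0.15. The median GC content was 44.4% for the ER list and 45.2% for the heat shock list. Among all genes of 40.5 to 45.5% GC, 51.6% were called lower. HSPH1, an HSP70 exchange factor, had changes of -0.80 in Panc1 and 0.18 in MiaPaCa2 (difference of -0.99 (SE 0.09, adjusted p = 2.8e-06)), and DNAJB4 had a difference of -0.75 (SE 0.09, adjusted p = 2.3e-05). In contrast, of 78 cytosolic ribosomal protein genes 45 were higher and 6 lower, with a relative median of 0.36 (0.11 to 0.39). Many rose in both lines, with 68 called up in Panc1 and 41 in MiaPaCa2 (medians of 0.33 and 0.16). Of all genes, 21.3% were called up in Panc1 and 18.3% in MiaPaCa2. RPL13, called in Panc1 alone, had a difference of 0.76 (SE 0.08, adjusted p = 5.3e-06), and genes of this family have processed copies that can share reads.

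Further lists are described by their members. Relative medians were 0.39 for 20 growth factor receptor genes (-0.03 to 0.47 over the alternatives), 0.26 for 14 chemokine and cytokine genes (0.03 to 0.31), 0.21 for 11 collagen and laminin genes (-0.04 to 0.24) and -0.08 for 32 lysosome and autophagy genes (-0.20 to -0.05). Lists of p53 targets, hypoxia, the respiratory chain, the proteasome, NRF2 and YAP and TAZ targets had medians of -0.06 to 0.11 whose sign changed with the processing. Among p53 targets, PMAIP1, the BH3 protein NOXA, fell in MiaPaCa2, where it read 5.58, 6.07 and 6.56 FPKM in the wild-type and 0.402, 0.242 and 0.447 FPKM in the knockout libraries. Panc1 had 4.37, 4.62 and 4.18 FPKM in the wild-type and 7.75, 5.54 and 4.61 FPKM in the knockout libraries (difference of 2.72 (SE 0.18, adjusted p = 2.2e-07)). The MiaPaCa2 groups were far apart and the Panc1 groups overlapped. PMAIP1 passed the filter in MiaPaCa2 only through the wild-type group. VEGFA, the angiogenic growth factor, had a difference of -1.09 (SE 0.15, adjusted p = 6.4e-05) and SLC16A3, a lactate exporter, a difference of 0.96 (SE 0.11, adjusted p = 1.8e-05). Respiratory chain subunits COX7B (difference of -1.10 (SE 0.09, adjusted p = 1.2e-06)) and NDUFS4 (difference of -1.02 (SE 0.09, adjusted p = 1.8e-06)), proteasome subunits PSMA2 (difference of -0.78 (SE 0.08, adjusted p = 4.7e-06)) and PSMC2 (difference of -0.47 (SE 0.07, adjusted p = 1.3e-04)) and the aldehyde dehydrogenase ALDH1A3 (difference of -1.09 (SE 0.09, adjusted p = 8.1e-07)) were lower in Panc1, though PSMC2 was not called after the GC and length correction (-0.18). CRIM1 (difference of 1.31 (SE 0.10, adjusted p = 8.9e-07)) was higher and GGH (difference of -0.94 (SE 0.12, adjusted p = 3.5e-05)) lower among YAP and TAZ targets.

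Genes with the largest differences outside these rules were chosen after their values were seen. STS, steroid sulfatase, had the lowest difference of the 11163 genes tested, with 3.46, 3.41 and 3.27 FPKM in the wild-type and 1.08, 0.943 and 0.98 FPKM in the knockout libraries of Panc1. MiaPaCa2 read 2.03, 1.54 and 1.78 FPKM in the wild-type and 9.58, 13.6 and 9.05 FPKM in the knockout libraries. Its groups did not overlap in either line (difference of -3.19 (SE 0.16, adjusted p = 3.7e-08)). SERINC2, a serine incorporator, rose in Panc1, with 10.9, 11.2 and 11.7 FPKM in the wild-type and 89, 92.1 and 76.2 FPKM in the knockout libraries (difference of 3.05 (SE 0.10, adjusted p = 1.4e-09)). H2AFY2, a macroH2A histone, had a difference of 2.88 (SE 0.19, adjusted p = 2.4e-07). Its Panc1 means were 0.101 FPKM in the wild-type and 3.71 FPKM in the knockout, so it passed the filter there only through the knockout group. TBX2, a T-box repressor, fell in Panc1 (difference of -2.27 (SE 0.12, adjusted p = 4.4e-08)), and LIPG, endothelial lipase, did so as well (difference of -2.90 (SE 0.29, adjusted p = 5.5e-06)). In MiaPaCa2 LIPG was near the floor with overlapping groups, at 1.17, 0.368 and 0.336 FPKM in the wild-type and 1.13, 2.8 and 1.11 FPKM in the knockout libraries. It passed the filter in MiaPaCa2 only through the knockout group.

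Difference and base composition moved together across genes. With genes put into 5 bins of equal size by GC content of the longest transcript (GENCODE 44 on GRCh37, 10671 genes or 95.6% of those tested), the median difference ran over -0.37, -0.25, -0.13, 0.01 and 0.13 from the lowest to the highest GC. The Panc1 change ran from -0.36 to 0.07 and the MiaPaCa2 change from 0.02 to -0.05. The share of genes called lower fell from 63.9% to 15.7%. Over 5 bins of length the median difference ran from -0.03 in the shortest to -0.23 in the longest. Mitosis genes had a median GC content of 42.2% and AP-1 genes one of 57.2%, and their relative medians after the GC and length correction were -0.21 and 0.33. The part of base composition in the other results was not tested.

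**Figure D4:**
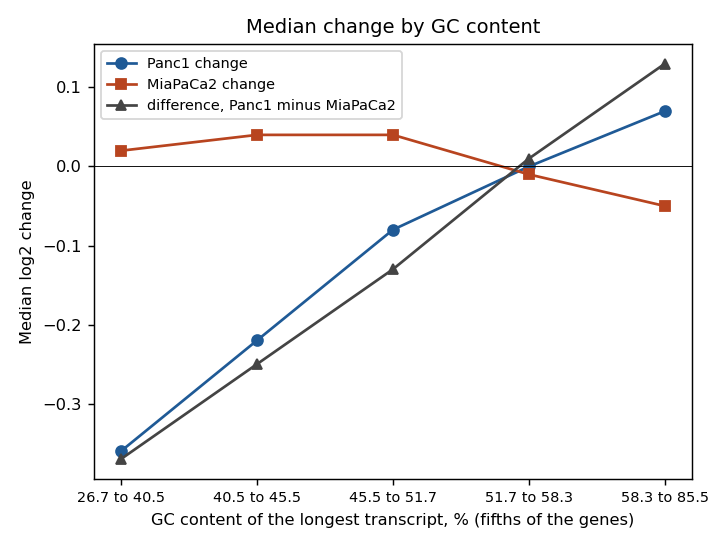
Median knockout change in Panc1 (circles) and MiaPaCa2 (squares) and their difference (triangles), as log2 values, in 5 bins of the genes by GC content of the longest transcript. The difference rises from -0.37 to 0.13, with Panc1 moving and MiaPaCa2 nearly level.

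Genes were also counted over stretches of chromosome 2, which carries ASAP2. The bounds were set from earlier results of these data, so the contrast between stretches is a description and not a test. Of all genes, 19.5% were higher and 38.9% lower in the difference. In the first 25 Mb of chromosome 2 (54 genes) the median change was -0.72 in Panc1 and -0.31 in MiaPaCa2, with 1 gene higher and 38 lower. From 25 to 85 Mb (212 genes) it was -0.03 and -0.37, with 128 higher and 12 lower. Beyond 85 Mb (413 genes) 106 were higher and 101 lower. TRIB2 and ASAP2 lie in the first stretch and CRIM1 in the second. Relative to all genes, chromosomes 7 (-0.27), 5 (-0.25), X (-0.25) and 21 (-0.20) were lowest and chromosome 2 (0.18) highest, and copy number was not measured.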

How the data were processed

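RNA-seq of 12 libraries (3 per group) of Panc1 and MiaPaCa2 cells was used. ISOGEN II was used to extract total RNA and a BGISEQ-500 to sequence it, per the labels' protocols. Per the submitters' processing notes and design text reads were aligned to hg19, and the tools named are TopHat2 2.0.14 and, for the FPKM values, STAR 2.5.2a. The authors deposited FPKM per gene symbol. Library preparation, strandedness and the handling of reads with several matches are not stated there, so overlapping genes on opposite strands cannot be told apart.

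Genes absent from a library were taken as 0. The values were transformed as log2(FPKM + 1), and limma 3.58.1 in R 4.3.3 was fitted with 4 group means over all 12 libraries (8 residual degrees of freedom), with a mean-variance trend and two-sided moderated tests. Benjamini-Hochberg adjustment ran over 11163 genes for each contrast, and the threshold was 0.05. The fit was tested on simulated data. Depth is not stated. Steps of low values, read against GENCODE lengths by a method chosen after the values were seen, peaked at 20.4 to 21.4 (in units of 1e6 fragments per library), but whole reads could not be recovered for nearly all genes, so no count test was run and no counting interval is given.

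The comparison, the gene lists and the rules for named genes were chosen with earlier results of these data known. The rules took ASAP2, the 5 genes each way with the largest smaller change among opposite calls, the 3 with the largest difference for each line and direction among genes called in 1 line, the 2 each way for the same sign and for alike changes, and the 2 largest called differences in each list. Some genes are not reported here. Except for the list rule, they asked for wild-type and knockout values without overlap where called and, for each line, a higher group averaging 5 FPKM or more. Other list members are named after their values were seen, as are 6 genes with large differences outside the rules and both promoter motifs. Lists of endothelial and fibroblast markers had 0 tested members, leukocyte markers 3 and pancreatic lineage genes 4. GENCODE 44 on GRCh37 gave positions, lengths and GC content, and in it 20402 of 22650 symbols had a single position, 613 of them through an older symbol, and promoters from RefSeq (GRCh38.p14). Python 3.11.15 and matplotlib 3.10.9 were used. The alternatives were other scalings, filters, pseudocount, weights, blocks, a GC and length correction (loess span 0.3), genes without chromosomes 2, 6 and 7, and each library left out.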

Additional observations from a re-analysis of the deposited data

Results flagged for a closer look

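The knockout effect differed between the lines, by the test of the difference itself, for 6519 genes, and 1274 of these were called with opposite signs. The same test flagged each gene below, with values given as Panc1 change less MiaPaCa2 change, in log2 units. No explanation was weighed.

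Among genes called in both lines with opposite signs, the higher differences were 2.21 for HES4, 2.41 for IFI6, 3.12 for LOC100507412, 2.32 for SEMA6B, 1.66 for CITED4, 2.09 for DDX58, 1.29 for DHX58, 1.96 for HLA-C and 1.86 for HLA-B. The higher differences also included 1.07 for TNFAIP2, 2.72 for PMAIP1, 1.49 for ACTN1, 1.22 for ITGA3, 0.97 for KRT8, 0.94 for AXL, 1.31 for CRIM1 and 1.44 for BMP6. The higher differences also included 1.28 for JUND, 1.07 for KLF2, 1.99 for IGFBP2, 0.96 for SLC16A3, 0.92 for ALDH3B1, 3.05 for SERINC2, 2.88 for H2AFY2 and 2.60 for UBE2L6. The lower differences were -2.23 for CSF1, -2.48 for AK5, -1.43 for PON2, -1.24 for ARRB1, -1.21 for KCNK6, -0.90 for PSD3, -1.05 for DNAJB9, -0.72 for DNAJC3 and -1.30 for GINS4. The lower differences also included -2.04 for S100A4, -0.96 for EGFR, -1.02 for NDUFS4, -0.99 for HSPH1, -0.75 for DNAJB4, -3.19 for STS and -2.90 for LIPG. A called gene could still overlap between wild-type and knockout, as HSPH1 and LIPG did in MiaPaCa2 and DDX58 and PMAIP1 in Panc1. IGFBP2 passed the filter in MiaPaCa2 only through the wild-type group.

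Among genes called in both lines with the same sign, the higher differences were 1.85 for SCD5, 1.67 for CHAC1, 1.28 for FABP5, 1.01 for TUBB3, 1.24 for SESN2, 0.73 for COL6A2, 2.88 for FHL1 and 0.48 for KRT19. The lower differences were -1.27 for PHLDA3, -0.52 for CD82, -1.64 for TRIB2, -1.02 for TM4SF18, -0.47 for PSMC2 and -1.09 for LAPTM5. LAPTM5 passed the filter in Panc1 only through the knockout group.

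Among genes called in Panc1 alone, the higher differences were 2.87 for TUBB2B, 2.75 for DSP, 1.90 for MYL9, 1.79 for PCK2, 0.76 for RPL13, 0.33 for SOX9 and 1.23 for GAA. The lower differences were -1.23 for ASAP2, -1.73 for IGFBP6, -1.38 for SNORA9, -1.35 for TSC22D1, -0.80 for INSIG1, -1.18 for HMMR, -0.85 for KIF18A, -0.83 for DSCC1 and -0.94 for GGH. The lower differences also included -1.22 for EREG, -1.10 for COX7B, -0.78 for PSMA2, -1.09 for ALDH1A3 and -2.27 for TBX2.

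Among genes called in MiaPaCa2 alone, the higher differences were 3.12 for ISG15, 1.12 for S100A16, 0.66 for AGRN and 0.62 for CORO1A. The lower differences were -1.84 for POPDC3, -1.71 for TMX4, -1.52 for KIAA1549L, -0.87 for MMP14 and -1.09 for VEGFA.

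Among genes called in neither line, the lower differences were -0.78 for MSMO1.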

How the results depend on the processing

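Over 26 alternatives the counts of higher, lower and opposite calls stayed within 1.5 times, except that a filter of 5 FPKM in both lines gave 2736 lower calls among 7274 genes tested and array weights gave 2132 opposite calls. Like totals did not mean the same genes. Of the 6519 genes called on the deposited scale, 4615 kept call and sign after the GC and length correction, which covered 10671 genes. With quantile normalization 4944 did so, with median-ratio scaling 5153 and on the TPM scale 6126. Leaving out each library gave 1959 to 2216 higher, 3912 to 4447 lower and 917 to 1269 opposite calls. The split of higher and lower calls moved with scaling, with lower calls at 48.8% (median-ratio), 51.9% (quantile), 53.8% (GC and length) and 74.1% (TPM scale) against 66.6%. Of 87 named genes, 81 kept their call and direction under every alternative. SAPCD2, never called on the deposited scale, turned to 0.07 with median-ratio scaling and was called at -0.21 after the GC and length correction. INSIG1 and MSMO1 lost their calls under most alternatives, and both were called at -1.13 without MiaPaCa2 wild-type replicate 1. PSMC2 lost its call after the GC and length correction (-0.18), KRT19 with quantile normalization (0.07) and LAPTM5 with a pseudocount of 0.1 (-0.62). The cause was not tested.

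Of 29 lists with at least 5 tested members, 17 had a median of at least 0.2 in size relative to all genes, 10 after the GC and length correction, and 14 to 17 with a library left out. A list was counted as reversed only at that size, a limit set after the values were seen. By it 2 lists reversed, collagens at -0.04 after the GC and length correction and growth factor receptors at -0.03 with the filter of 5 FPKM. Without the limit 13 lists had medians on both sides of 0 over the alternatives, 11 of them by more than the spread of the list over libraries, so the medians near 0 have no stable sign.

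Same-numbered libraries showed no clear pairing, with correlations of deviations of 0.074, 0.042 and 0.123 in Panc1 and -0.139, -0.176 and 0 in MiaPaCa2. Differently numbered pairs ran from -0.113 to 0.05 in Panc1. In MiaPaCa2 they ran from -0.217 (wild-type 1 with knockout 3) to 0.282 (wild-type 1 with knockout 2). Deviations shared across numbers in MiaPaCa2 are not taken up by a block on the number, and their source was not tested. With the replicate block over all libraries there were 2168 higher, 4354 lower and 1257 opposite calls, and with the replicate block within each line 2055, 4126 and 1068. The planned count test was not run, because whole reads could not be recovered.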
